A study of Mus musculus with 12 samples.

Results

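Tescalcin (Tesc, also called calcineurin B homologous protein 3) and its relatives Chp1 and Chp2, the calcineurin B homologous proteins 1 and 2, were followed in a pair of mouse osteosarcoma cell lines. These 3 genes, out of 20144 genes with a named probe, were chosen by the array signals themselves, as the family of Tesc, which had been seen well above background in LM8 cells and not in Dunn cells, so the difference between the lines is given for them as a description, without a test. They had 4 probes on the arrays, 1 for Tesc, 2 for Chp1 and 1 for Chp2. Dunn is a line of low metastatic potential, and LM8 is a metastatic line derived from Dunn by selection in vivo. No gene was deleted or introduced and no agent was added in any group. Early and late Dunn cells were at passages 25 and 86 (Dunn_25 and Dunn_86), and early and late LM8 cells were at passages 24 and 91 (LM8_24 and LM8_91). Each of the 4 groups had 3 arrays from independently cultured replicates of 1 line, so that a difference between the lines is a difference between these lines only. The labels describe both lines as osteoblastic, and Runx2, Sp7, Col1a1 and Ibsp, of 9 osteoblast genes with a probe, were seen (marked well above background by the scanner software) on all 3 arrays of every group, and 4, 5, 7 and 9 of the 9 in Dunn_25, Dunn_86, LM8_24 and LM8_91, where a spot left out as an outlier counts as not seen. Of 7 probed markers of blood cells and megakaryocytes, cells in which Tesc is known to act, 0 to 2 (Gp1bb and Tal1) were seen on all arrays of a group. Tal1, a transcription factor of blood cell progenitors, was seen on 6 LM8 and 0 Dunn arrays, as Tesc was. Its processed signals were low and overlapped, 24.0 to 49.5 in LM8 and 4.64 to 32.3 in Dunn. Those of Tesc were 2036 to 5227 in LM8. Ptprc, the leukocyte common antigen, was seen on none of the 6 Dunn and 2 of the 6 LM8 arrays. The summed signal of the 7 markers, in units of the array's 75th percentile, was 0.0944 to 0.504 on the Dunn arrays. It was 0.0807 to 0.165 on the LM8 arrays. Most of these markers were not well above background, and the 75th percentile was higher on most LM8 arrays. The sums therefore do not measure the level of such cells in either line. Among the chondrocyte genes, Sox9 was seen on 2 Dunn and 6 LM8 arrays and Acan on 1 and 4, whereas Col2a1 was seen on every array that measured it, 4 and 6. Ctsk, a protease of osteoclasts, was seen on 1 Dunn and 5 LM8 arrays, with processed signals of 7.14 to 39.1 in Dunn, 437 to 676 in LM8_24 and 9.85 to 25.9 in LM8_91. Dhh, of a list of 4 gonad genes, was likewise seen on 1 and 5. The rest of that list did not show this split. Amh was seen on 1 Dunn and 0 LM8 arrays, and Cyp17a1 and Star were each seen on 5 and 6. Pecam1, an endothelial gene, was seen on 2 and 5. Relative to the array's 75th percentile, however, its mean log2 signal was lower in LM8 (-5.88) than in Dunn (-5.26). That of Acan was lower in LM8 too (-6.48 against -5.95). Of the other endothelial genes, Kdr was seen on all 6 arrays of each line, at -0.57 in LM8 and -0.0045 in Dunn. Tek was seen on 1 Dunn array and Cdh5 on none. The part of such cell type genes in the values of Tesc was not tested.

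These 3 proteins are small EF-hand calcium sensors that carry a myristoyl group at their N-terminus and resemble calcineurin B, the regulatory subunit of the phosphatase calcineurin. They bind to ion transporters and enzymes at membranes. CHP1 and tescalcin can also inhibit calcineurin, which otherwise dephosphorylates the NFAT transcription factors. Tescalcin is known besides as a factor of megakaryocyte differentiation upstream of Ets factors and as a partner of the COP9 signalosome subunit encoded by Cops4, and CHP1 binds the lipid enzyme GPAT4.

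The stretches around the annotated start sites of the 3 genes are shown because Tesc was seen in one line alone, Chp1 in both and Chp2 on a single array. Each holds 300 bases, 250 before and 50 from the start onward, written 5′ to 3′ on the gene's own strand with each CG dinucleotide in capitals. They come from RefSeq on the assembly GRCm38.p6, at chr5:118027493-118027792 for Tesc, chr2:119547457-119547756 for Chp1 and chr7:122219246-122219545 for Chp2, all on the plus strand.
Tesc: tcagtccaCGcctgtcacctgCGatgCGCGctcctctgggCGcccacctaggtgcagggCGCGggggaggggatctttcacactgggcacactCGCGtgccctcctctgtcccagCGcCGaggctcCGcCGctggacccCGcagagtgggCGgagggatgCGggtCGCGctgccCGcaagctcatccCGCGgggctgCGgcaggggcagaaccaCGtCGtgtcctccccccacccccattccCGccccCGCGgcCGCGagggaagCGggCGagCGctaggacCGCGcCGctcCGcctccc
Chp1: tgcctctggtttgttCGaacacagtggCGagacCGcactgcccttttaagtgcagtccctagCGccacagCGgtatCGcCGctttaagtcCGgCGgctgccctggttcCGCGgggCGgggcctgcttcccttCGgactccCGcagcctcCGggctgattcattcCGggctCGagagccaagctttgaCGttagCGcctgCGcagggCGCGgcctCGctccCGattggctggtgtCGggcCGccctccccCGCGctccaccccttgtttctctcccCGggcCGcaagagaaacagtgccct
Chp2: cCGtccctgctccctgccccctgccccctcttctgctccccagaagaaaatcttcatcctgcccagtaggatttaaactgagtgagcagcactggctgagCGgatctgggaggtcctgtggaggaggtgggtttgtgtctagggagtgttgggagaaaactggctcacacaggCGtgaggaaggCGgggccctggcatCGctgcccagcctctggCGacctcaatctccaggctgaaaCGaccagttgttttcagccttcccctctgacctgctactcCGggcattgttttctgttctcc
The Tesc stretch held 36 CG dinucleotides and 74.7% G and C, and 6.23% of all 32851 such stretches in the table had at least as many. Chp1 held 30, a number reached by 11.7% of stretches. Chp2 held 8, against a median of 7 over all stretches. No motif was searched for besides CG, which reads the same on both strands, and the methylation of these stretches was not measured.

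Values below are the processed signal of the scanner software, a spot's intensity after subtraction of its background, or the scaled signal, which is log2 of the processed signal minus the 75th percentile of that array's log2 signals. Scaled signals are compared between arrays for 1 probe, never between probes. A probe was seen on an array when the scanner software marked it well above background. The 75th percentile was lower on the Dunn arrays (287 to 961) than on most LM8 arrays (893 to 1903), and 39.1% to 59.7% of probes were seen on an array. The first replicate of Dunn_86 stood apart by its median scaled signal, -3.21 against -5.43 to -4.43 on the other 11 arrays. The first replicate of Dunn_25 stood apart by its local background, a median of 87 against 22.5 to 34 elsewhere, and had the 39.1%. The 12 arrays lay on 3 slides, each of which held 1 array of every group at the same place, so place and group cannot be told apart. A gene was called changed when limma gave an adjusted p under 0.05 and a change over 2-fold for its brightest probe, and when this probe was seen on all 3 arrays of at least 1 group.

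Tesc was seen on all 6 LM8 arrays and on none of the 6 Dunn arrays. Its processed signal was 8.65, 8.62 and 2.50 in replicates 1 to 3 of Dunn_25 and 16.0, 6.39 and 8.90 in those of Dunn_86. In LM8_24 it was 2036, 3427 and 2058, and in LM8_91 it was 2749, 5227 and 3347. The lowest LM8 value thus lay far above the highest Dunn value, and the lines did not overlap. In RNA from whole cultures, more cells with a transcript and more transcript per cell cannot be told apart.

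On the scaled axis Tesc stood at -5.48, -6.13 and -6.84 in Dunn_25 and at -5.56, -7.23 and -6.27 in Dunn_86. It stood at 1.19, 1.38 and 0.77 in LM8_24 and at 1.24, 1.46 and 1.29 in LM8_91. The group means were -6.15 ± 0.68 (SD, n = 3) in Dunn_25, -6.36 ± 0.84 in Dunn_86, 1.11 ± 0.31 in LM8_24 and 1.33 ± 0.11 in LM8_91. The spread within the Dunn groups is that of a probe not well above background. Over both passages the scaled signal averaged 1.22 ± 0.24 (SD, n = 6) in LM8 and -6.25 ± 0.69 (SD, n = 6) in Dunn.

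Because the Dunn values are not well above background, the fold change of Tesc has only a lower bound. For the bound, each Dunn array was given the higher of its own Tesc signal and the lowest signal among the probes seen on it. On this basis Tesc was at least 84.5-fold higher in LM8 than in Dunn. The bound was at least 56.2-fold for LM8_24 against Dunn_25, 127-fold for LM8_91 against Dunn_86, 109-fold for LM8_24 against Dunn_86 and 65.2-fold for LM8_91 against Dunn_25. The lower bounds are those against Dunn_25, on whose arrays the lowest seen signal was higher. Within slides, the measured scaled signal of Tesc in LM8 exceeded that in Dunn by 6.74, 8.10 and 7.59 on slides 1, 2 and 3. Their shared direction follows from the way Tesc was chosen. Of all genes, 141 (0.7%) were likewise seen on all 6 LM8 arrays and no Dunn array, and 30 (0.149%) showed the opposite pattern. The Dunn_25 arrays saw only 39.1% to 50.2% of probes. The share was 52.9% to 59.7% on Dunn_86 arrays and 53.7% to 59.5% on LM8 arrays. These 2 counts therefore cannot be set against each other as genes turned on and off.

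**Figure D1:**
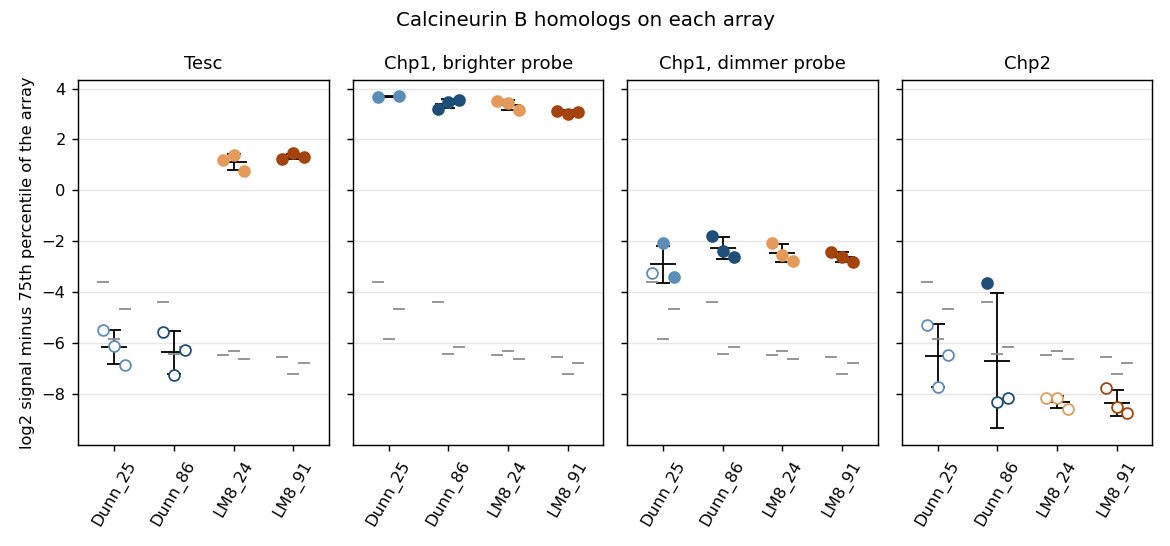
Scaled log2 signal (vertical axis) of Tesc, both Chp1 probes and Chp2 on each array, by group and in the order of replicates 1 to 3. Filled points were well above background and open points were not, black bars give the mean and SD of a group, and grey ticks mark the lowest signal of any probe well above background on each array. Tesc lies below the grey tick on all 6 Dunn arrays and between 0.77 and 1.46 in LM8, whereas the brighter Chp1 probe lies at similar heights in all groups.

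The change with passage was not used to choose the family and was tested. Since Tesc was chosen as seen in LM8 and not in Dunn, its passage results are not fully independent of that choice. In LM8 cells the scaled signal of Tesc was 0.22 higher in late than in early cells (standard error 0.22, 95% interval -0.31 to 0.75), with an adjusted p of 0.587 in limma. The groups overlapped, although the late array was the higher on all 3 slides, by 0.05, 0.08 and 0.52. Between the passages, 498 of 20144 genes (2.47%) were called in LM8, and of the 3 family members 0 were called. Chp2 was not seen on all 3 arrays of any group, so it could not be called in any comparison. In Dunn cells the difference of Tesc was -0.20 (standard error 0.59, adjusted p = 0.981), between values that were not well above background. Dunn cells had 1 called gene of 20130 (0.00497%), and again 0 of the 3 members. The interaction of line and passage, the difference between the lines in their change with passage, was 0.42 for Tesc (standard error 0.64, 95% interval -0.999 to 1.84, adjusted p = 1.00). Its Dunn side rests on values that were not well above background, so neither its size nor its interval is that of a measured transcript. An interaction was called for 122 of 20130 genes (0.606%) and for 0 of the 3 members. With such small shares of all genes called, 0 of 3 is no result about the family. The intervals leave room for a change in either direction.

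Chp1 was bright in all groups. Its brighter probe gave processed signals of 4880 and 3700 in replicates 1 and 3 of Dunn_25, where the spot of replicate 2 was marked as an outlier and left out, so that fits of this probe rest on 1 array fewer. The signals were 6914, 10742 and 8041 in Dunn_86, 10231, 14128 and 10674 in LM8_24 and 10249, 15162 and 11534 in LM8_91. The 75th percentile of the arrays rose in the same order of groups, and scaling removed these rises. The scaled signal was 3.67 ± 0.02 (SD, n = 2) in Dunn_25, 3.41 ± 0.19 (SD, n = 3) in Dunn_86, 3.36 ± 0.19 in LM8_24 and 3.07 ± 0.07 in LM8_91. In the order of these means, Dunn_86 and LM8_24 overlapped, and the groups at either end did not overlap with their neighbours.

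Between the lines the brighter Chp1 probe differed by -0.30 on the log2 scale (LM8 minus Dunn), with overlap, and by -0.10 on slide 1 and -0.51 on slide 3. The median over all genes was -0.66 in this comparison, and -0.27 over the genes seen on all 3 arrays of a group. Relative to the median of all genes, Chp1 was therefore higher by 0.36, but it lay close to the median of the seen genes (-0.30 beside -0.27). With passage Chp1 changed by -0.29 in LM8 (standard error 0.19, 95% interval -0.74 to 0.16, adjusted p = 0.379 in limma) and by -0.26 in Dunn (standard error 0.35, adjusted p = 0.886). The early and late LM8 arrays did not overlap, but the test was not passed. The interaction was -0.03 (adjusted p = 1.00).

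The dimmer Chp1 probe gave a different order of the groups. Its processed signal was 40.8, 142.6 and 27.1 in Dunn_25, 218.5, 183.0 and 112.2 in Dunn_86, 214.0, 226.3 and 176.8 in LM8_24 and 219.0, 306.2 and 192.8 in LM8_91. It was seen on 11 of the 12 arrays, the exception being replicate 1 of Dunn_25, the array with the high local background. The scaled signal was -2.91 ± 0.72 in Dunn_25, -2.27 ± 0.42 in Dunn_86, -2.46 ± 0.36 in LM8_24 and -2.62 ± 0.21 in LM8_91 (SD, n = 3 each), and all 4 groups overlapped. LM8 minus Dunn was 0.05, opposite in sign to the brighter probe, and the slides disagreed (0.28, -0.35 and 0.21). Its change with passage was -0.17 in LM8 (adjusted p = 0.723) and 0.64 in Dunn (adjusted p = 0.782), so neither probe of Chp1 was called.

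Chp2, the family member best known from intestine and from tumour cells, was not well above background on 11 of the 12 arrays. Its processed signal was 9.93, 2.84 and 3.28 in Dunn_25, 3.13, 4.59 and 3.15 in LM8_24 and 5.37, 5.24 and 3.14 in LM8_91. In Dunn_86 it was 60.6 in replicate 1 and 3.02 and 2.44 in replicates 2 and 3. The only array on which Chp2 was seen is thus the one whose median scaled signal stood apart, and the part of that array's overall signal in this value was not tested. No fold change is given. The change with passage was -0.04 in LM8 (adjusted p = 0.948) and -0.21 in Dunn (adjusted p = 0.999), both between dim values.

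Over the 12 arrays, the scaled signal of Tesc had a Pearson correlation of -0.64 with the brighter Chp1 probe (11 arrays), of 0.07 with the dimmer one and of -0.51 with Chp2. These values describe 3 arrays of each of 4 groups that share slides, and for Tesc they mainly set one line against the other. Of the 3 members, Tesc was seen in LM8 alone, Chp1 in both lines and Chp2 on a single array.

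The other genes around the family were read from 10 lists with 87 genes, all with a probe, of which 60 were seen on all arrays of a group. In LM8 against Dunn, 6 of the 87 were called higher and 10 lower, 18.4% in all, against 10.6% of all 20143 genes tested (4.28% higher and 6.34% lower). Their median difference was -0.48, beside -0.66 over all genes. Here and below, calls in LM8 against Dunn pool the passages unless groups are named. An adjusted p beside a lower bound is that of the measured difference, not of the bound. In late against early LM8 cells, 0 rose and 5 fell (5.75%), beside 2.47% of all genes (0.903% higher and 1.57% lower), and in Dunn cells 0 changed. In the single pairings, 7 of the 87 were called for LM8_24 against Dunn_25 (3.71% of all genes), 6 for LM8_91 against Dunn_86 (3.56%), 3 for LM8_24 against Dunn_86 (2.71%) and 21 for LM8_91 against Dunn_25 (18.2%). Scaling moved the split of the calls between the lines, which was 7 higher and 7 lower after quantile normalization, 3 and 12 after another background correction (normexp) and 24 and 2 without scaling. The calls over all genes moved the same way, from 862 higher and 1278 lower to 817 and 998, 458 and 2051, and 4059 and 228 in the same settings.

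**Figure D2:**
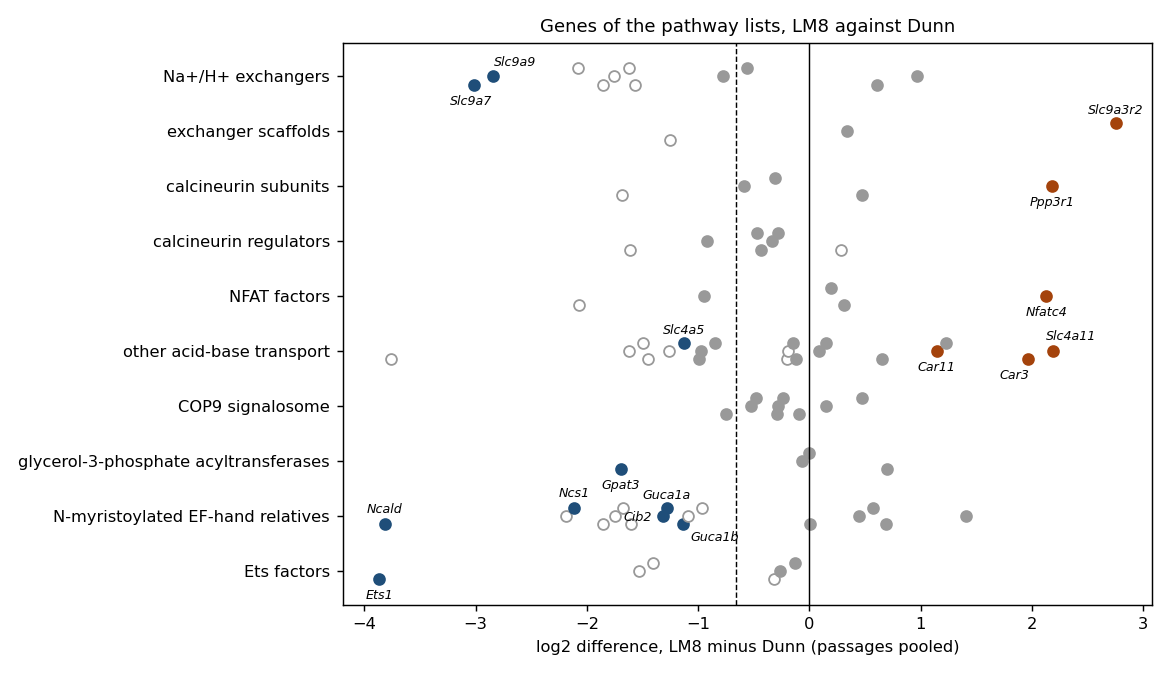
Log2 difference between LM8 and Dunn (horizontal axis, passages pooled, 6 arrays a line) of each gene of the 10 lists (rows). Orange points were called higher and blue points lower, grey points were not called, and open points mark genes not seen on all 3 arrays of any group. The solid line is 0 and the dashed line the median of all genes, -0.66, and the called genes range from Ets1 at -3.86 to Slc9a3r2 at 2.75.

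Among 11 Na+/H+ exchangers, 0 were called higher and 2 lower in LM8. Slc9a7, an exchanger of the trans-Golgi network, differed by a measured -3.01 (adjusted p = 0.0150) without overlap, a call lost without scaling and without slide 1. It was seen on 3 of 3 arrays of LM8_24 and on none of LM8_91, so the sizes of that difference and of its interaction rest in part on background values. In LM8_91 it fell to at least 2.36-fold below LM8_24 (adjusted p = 0.00169), a call lost with normexp, and it was at least 6.25-fold below Dunn_86 (adjusted p = 0.00114). It was the only listed gene with a called interaction (-3.61, adjusted p = 0.00539). Slc9a9, an exchanger of late recycling endosomes, differed by a measured -2.84 (adjusted p = 0.00342), a call lost without scaling. It was seen on the 3 arrays of Dunn_86 and on no array of Dunn_25 or LM8, so most values behind this size are background. In LM8_91 it was at least 5.08-fold below Dunn_86 (adjusted p = 0.0414). LM8_24 was called lower than neither Dunn group. Of the 3 scaffolds that hold exchangers at the membrane, Slc9a3r2 was higher by 2.75 (standard error 0.45, adjusted p = 0.00202) and did not overlap, and its call was lost with normexp.

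Among the 5 calcineurin subunits, the catalytic subunits Ppp3ca, Ppp3cb and Ppp3cc differed by -0.31, 0.47 and -0.59 between the lines, with adjusted p-values of 0.220, 0.338 and 0.114. None of these 3 was called. Ppp3r1, the regulatory calcineurin B that the family resembles, was called higher in LM8, by 2.18 (standard error 0.79, adjusted p = 0.0456). Its scaled signals were 1.18 and -3.88 in Dunn_25, where replicate 2 was left out as an outlier, and -1.88, 0.59 and 0.07 in Dunn_86. They were 0.46, 1.17 and 1.40 in LM8_24 and 1.52, 1.87 and 1.95 in LM8_91. The lines overlapped, and the call was lost without replicate 1 of Dunn_86, replicate 3 of Dunn_25, replicates 2 or 3 of LM8_24 or any replicate of LM8_91, with adjusted p-values up to 0.0909. It was lost too with the slide as a block (adjusted p = 0.0627), after quantile normalization, in 1 fit over all arrays, by the methods' t-test, without slide 1 and with outlier spots kept (adjusted p-values up to 0.102). Ppp3r2, the testis form of calcineurin B, was not well above background on any array. Of 7 calcineurin regulators, 0 were called in either direction with passages pooled. For LM8_91 against Dunn_25, where 18.2% of all genes were called, 1 of them was called lower.

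Among the 5 NFAT factors, Nfatc4 was called higher in LM8. It was seen on all 6 LM8 arrays and on no Dunn array, and the lines overlapped in scaled signal. The measured difference was 2.13 (adjusted p = 0.0304 in limma), and its size rests on background values in Dunn. As a lower bound, Nfatc4 was at least 1.70-fold higher in LM8, and the bound itself was not tested. This call was lost without replicate 3 of Dunn_25, replicate 3 of LM8_24 or replicate 2 of LM8_91 (adjusted p-values up to 0.0615), and with dim signals raised to each array's lowest seen signal, and the sign turned to -0.46 with normexp. Within LM8 it fell by 2.44 on the log2 scale from early to late cells (adjusted p = 0.00882), a call lost without replicate 3 of LM8_91 (adjusted p = 0.0534). Without scaling, with normexp, in 1 fit over all arrays, by the methods' t-test and without slide 1 it was lost as well (adjusted p-values up to 0.182).

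Of 20 other genes of acid-base transport, 3 were called higher and 1 lower in LM8. Car3, a carbonic anhydrase, was higher by 1.97 (standard error 0.29, adjusted p = 0.00102), with every LM8 array above every Dunn array. Slc4a11, an ion transporter of the bicarbonate transporter family, was higher by 2.19 (adjusted p = 0.00225) and Car11, a relative of the carbonic anhydrases without their activity, by 1.14 (adjusted p = 0.00144, a call lost with normexp), also without overlap. Slc4a5, a sodium bicarbonate cotransporter, differed by a measured -1.12 (adjusted p = 0.0391) with overlap. It was seen on 5 LM8 arrays but on only 3 Dunn arrays, so this size rests in part on background values. Its highest scaled signals, -3.74 and -4.10 in replicates 1 and 3 of Dunn_25, were not well above background. The Slc4a5 call was kept without replicates 1, 2 or 3 of Dunn_86 or replicate 1 of LM8_24. It was lost without any other array (adjusted p-values up to 0.0810). It was lost too after quantile normalization, by the methods' t-test, without slide 1 and with outlier spots kept, and the sign turned to 0.043 without scaling. Car5b, a mitochondrial carbonic anhydrase, fell by 1.78 from early to late LM8 cells (adjusted p = 0.0231), a call lost without replicates 1 or 2 of either LM8 group (adjusted p-values up to 0.108). It was lost too with the slide as a block (adjusted p = 0.102), without scaling, with normexp, in 1 fit over all arrays, by the methods' t-test and without slide 1 (adjusted p-values up to 0.949).

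Of the 9 COP9 signalosome subunits, 0 were called in LM8 against Dunn. Cops4, the subunit that tescalcin binds, differed by 0.47 (adjusted p = 0.462), with a Dunn_25 value of 0.38 in replicate 1 beside 2.91 to 3.91 on the other 4 Dunn arrays measured. Of the 4 glycerol-3-phosphate acyltransferases, Gpat4, which CHP1 binds, differed by -0.0012 (standard error 0.20, 95% interval -0.43 to 0.42), and Gpat3, which makes the same lysophosphatidic acid at the endoplasmic reticulum, was lower in LM8 by a log2 difference of -1.69 (adjusted p = 0.00844), a call lost without scaling.

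Of 17 other EF-hand proteins, chosen as relatives with a myristoyl group or of like fold, 0 were called higher and 5 lower in LM8. Ncald (neurocalcin delta) differed by a measured -3.82 (standard error 0.39, adjusted p = 5.85e-05), and was seen on 6 Dunn arrays and 1 LM8 array, so the size rests largely on background values in LM8. In LM8_24, where no array saw it, it was at least 10.9-fold lower than in Dunn_25 (adjusted p = 0.00547) and at least 4.74-fold lower than in Dunn_86 (adjusted p = 0.0412). Cib2, which binds calcium and integrins, differed by -1.31 (adjusted p = 0.0203) without overlap, a call lost without scaling and without slide 1. Ncs1 (neuronal calcium sensor 1) differed by a measured -2.12 (adjusted p = 0.0339) with overlap, and it was seen on the 3 arrays of Dunn_86 and 1 of LM8_24 alone, so most of the values behind this size are background. The Ncs1 call was kept without replicate 2 of Dunn_25, replicates 2 or 3 of Dunn_86 or replicates 1 or 2 of LM8_24 and lost without any other array (adjusted p-values up to 0.0741). It was lost too after quantile normalization, without scaling, by the methods' t-test, without slide 1 and with outlier spots kept (adjusted p-values up to 0.483). Within LM8, Ncs1 differed by a measured -1.79 from early to late cells (adjusted p = 0.0186). It was seen on 1 array of LM8_24 and 0 of LM8_91, so this size too rests mostly on background values. The call was lost without replicates 1 or 2 of LM8_24 or replicates 2 or 3 of LM8_91 (adjusted p-values up to 0.0859). It was lost too with the slide as a block (adjusted p = 0.0860) and in 6 other settings, kept after quantile normalization, with the filter on dim probes, with the mean of the probes and with outlier spots kept. Guca1a and Guca1b, the guanylate cyclase activators known from photoreceptors, make up the 5 and are named after their values were seen. Their differences were -1.28 and -1.14.

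Of 6 Ets factors, Ets1 was lower in LM8, by a log2 difference of -3.86 (standard error 0.40, adjusted p = 6.59e-05). Its scaled signal was 1.14, 0.87 and 1.73 in Dunn_25, 0.17, 0.59 and 0.80 in Dunn_86, -2.21, -2.12 and -2.24 in LM8_24 and -3.55, -3.85 and -3.91 in LM8_91. Ets1 thus ran opposite to Tesc between the lines, and the 4 groups did not overlap. It fell by a further 1.58 from early to late LM8 cells (adjusted p = 0.00894), a call lost without replicates 2 or 3 of LM8_91 (adjusted p-values up to 0.0606), whereas no change of Tesc was called there. With the slide as a block the call of Ets1 with passage was lost (adjusted p = 0.0528), as it was without scaling and without slide 1 (adjusted p-values up to 0.163). Ets1 and Ncald were the 2 listed genes called in each of the 4 pairings of an LM8 with a Dunn group, both lower, as were 0.963% of all genes, and 0 were called higher in all 4 (0.482% of all genes).

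The genes whose scaled signal followed Tesc most closely over the 12 arrays were Jsrp1 (Pearson r = 0.993), Snord123 (0.992), Morn5 (0.991), Mlxipl (0.990), Rgcc (0.990), Timp4 (0.987), Ctsc (0.986), Zfp105 (0.986), Usp11 (0.986) and Fbxo27 (0.985), out of 11293 genes seen on all arrays of a group and measured on every array. Of these 10 genes, Snord123, Morn5, Mlxipl, a glucose-sensing transcription factor, Ctsc, a protease that activates granule enzymes, Zfp105, Usp11 and Fbxo27 were also seen on all LM8 arrays and no Dunn array. The lowest correlations were those of Ap1s3 (-0.997), Fbn1, which encodes the matrix protein fibrillin 1 (-0.996), and Pkdcc, a secreted kinase (-0.993), each seen on all Dunn arrays and no LM8 array. A correlation over 0.95 was found for 57 genes and under -0.95 for 170. Such values mostly restate the difference between the lines, since the arrays fall into 2 separate blocks. Within the 6 LM8 arrays alone the 10 genes correlated with Tesc between -0.81 (Zfp105) and 0.83 (Timp4).

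**Figure D3:**
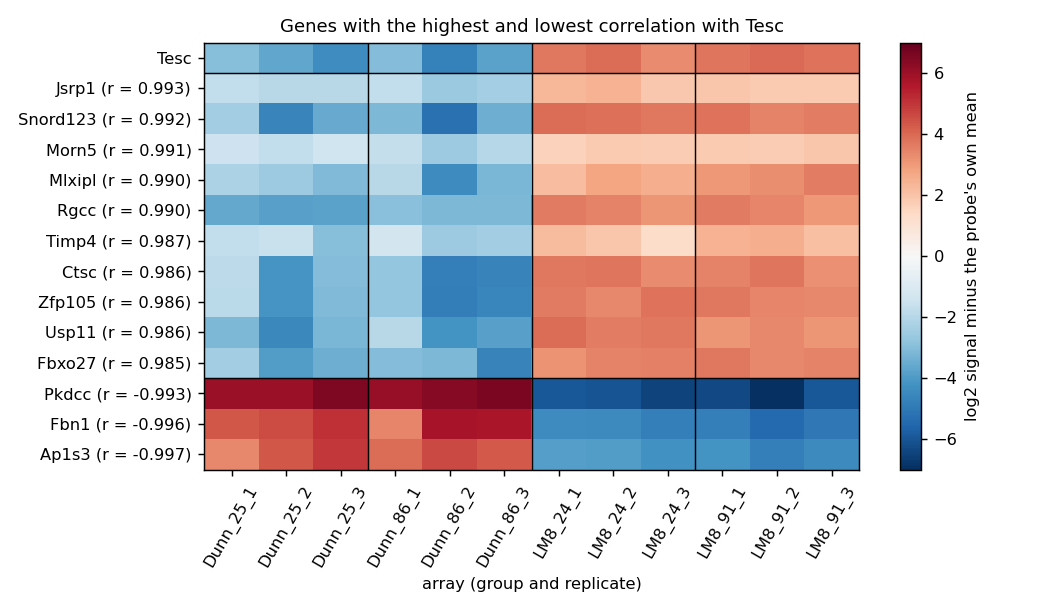
Deviation of the log2 signal from the probe's own mean over the 12 arrays (colour scale) for Tesc, the 10 genes with the highest and the 3 with the lowest Pearson correlation with it (rows, with r) on each array (columns, by group). Tesc and the 10 genes are red on all 6 LM8 arrays and blue on all 6 Dunn arrays, and Pkdcc, Fbn1 and Ap1s3 show the reverse, with no like step between early and late passage.

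Tesc lies on chromosome 5 between Fbxo21 and Fbxw8. Of the 8 nearest genes with a probe on each side, 13 of 16 were seen on all arrays of a group. None was called higher in LM8 and 1 lower (Med13l, a Mediator subunit, -1.21, adjusted p = 0.0171), where 4.28% and 6.34% of all genes were called. The neighbours on either side differed by -0.16 (Fbxo21, a ubiquitin ligase adaptor, adjusted p = 0.454) and -0.98 (Fbxw8, of the same kind, adjusted p = 0.0265, just under 2-fold). Nos1, 2 genes away, was the neighbour with the largest positive difference, 0.80 (adjusted p = 0.0312), also under 2-fold. The median of the 16 differences was -0.59, beside -0.66 over all genes. For the 13 seen on all arrays of a group it was -0.39, beside -0.27 over all genes so seen. With passage, 0 of the 16 were called in LM8 and 0 in Dunn. Tesc itself was at least 84.5-fold higher. With 4.28% of all genes called higher, 0 of 16 lies near that share. Neighbours not seen on all arrays of a group could not be called. The count is therefore no result about the neighbourhood of Tesc.

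**Figure D4:**
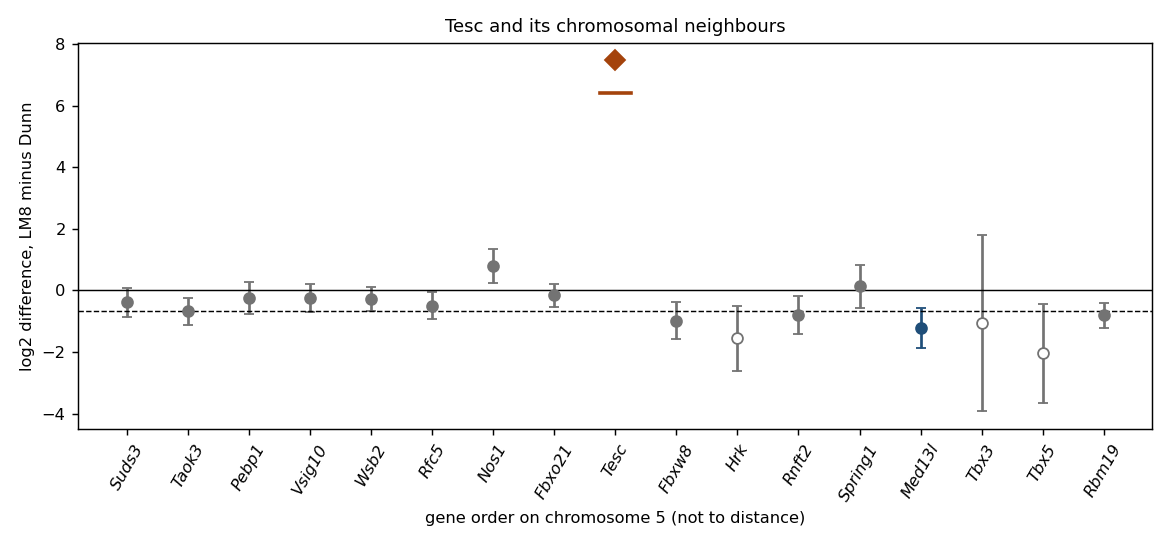
Log2 difference between LM8 and Dunn (vertical axis, passages pooled) of Tesc and the 8 genes on each side in the order of the annotation, with 95% intervals. The diamond is the measured difference of Tesc and the bar under it the lower bound, open points were not seen on all 3 arrays of any group, and the blue point (Med13l) was called. Solid and dashed lines mark 0 and the median of all genes, and the 16 neighbours lie between -2.03 (Tbx5) and 0.80 (Nos1).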

How the data were processed

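Total RNA of the 12 cultures was labelled with Cy3 and hybridized to Agilent mouse 4x44k v2 arrays. The authors deposited the output of Agilent Feature Extraction (version 10.7.3 per the submitters' processing notes) for each array, whose processed signal is an intensity after background subtraction, with no scaling across arrays. A second deposited table, which spans the series, holds the same intensities, rounded and unscaled (100% of spots within 0.6%). The labels name RNeasy for RNA extraction and the paper TriReagent. The labels' source field speaks of human lines, whereas the organism field, the array and the cell lines are mouse.

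Controls were dropped, which left 43020 spots of 39429 probes. Outlier spots marked by the software, 0.31% to 3.45% of spots on an array, were dropped too. The remaining spots of a probe were averaged. From each log2 signal the array's own 75th percentile was subtracted. Accessions matched 26581 probes (67.4%) to 20144 genes of the GRCm38.p6 annotation, used for names and gene order. The files name an older build, so no probe coordinates are given. A gene is represented by its probe with the highest mean log2 signal over the 12 arrays. All 3 members matched a start-site stretch.

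Comparisons used lmFit and eBayes of limma 3.58.1 (R 4.3.3) on the arrays of the groups compared, the interaction on all 12, with Benjamini-Hochberg adjustment over all probes. The steps were tested on simulated data. Precision is limited by having 3 arrays per group. The members, lists and tests were chosen with earlier results of these data known. 1 listed gene is not reported here. Genes named are the members, 7 direct partners, the genes called in a list (up to 3 in each direction), 10 and 3 genes with the highest and lowest correlation with Tesc, and 8 neighbours on each side. Alternatives were quantile normalization, normexp (offset 50, on median signals, since no mean signal was in the files), the unscaled table, a floor and a filter on dim probes, a slide block, 1 fit over all arrays, the methods' t-test, the mean of a gene's probes, and leaving out each array. Leaving out slide 1 and keeping flagged spots were added after the data were seen. Plots were drawn with matplotlib 3.10.9.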

Additional observations from a re-analysis of the deposited data

How the results depend on the processing

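Chp2 was not seen on all 3 arrays of any group, which a call requires. No passage or interaction result of Tesc, Chp1 or Chp2 was called under any alternative, and Tesc was higher in LM8 under all of them. Its LM8 minus Dunn difference was 8.16 after quantile normalization, 8.64 without scaling, 3.92 with normexp and 6.40 with the floor on dim signals, where the Dunn values are set to a higher level by construction, and 7.28 to 7.63 leaving out each array. That of Chp1 was -0.14 after quantile normalization, 0.89 without scaling, -0.012 with normexp, 0.34 for the mean of its probes and -0.14 with flagged spots kept, so its sign rests on the processing (-0.38 to -0.25 leaving out each array). That of Chp2 was -0.24 after quantile normalization and -2.07 to -1.14 leaving out each array, all below or near background. Relative to the median of all genes, which shifted from -0.66 to 0.50 without scaling, -0.17 after quantile normalization and -0.89 with normexp, Chp1 was higher by 0.36, 0.39, 0.029 and 0.87 in the main setting, without scaling, after quantile normalization and with normexp. Over the genes seen on all 3 arrays of a group, the median was -0.27, 0.89, -0.15 and -0.36 in these 4 settings. Chp1 lay close to that median in all of them but normexp. The differences of Tesc and Chp2 are measured ones that include values not well above background.

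Signs turned among the small passage differences. In Dunn cells Tesc stood at 0.46 after quantile normalization and 0.76 without scaling (-0.60 to 0.24 leaving out each array), Chp1 at 0.98 without scaling, 0.22 with normexp and 1.15 for the mean of its probes (in which replicate 2 of Dunn_25 has the dimmer probe only), and Chp2 at 0.38 and 0.76 after quantile normalization and without scaling (-1.74 to 0.60). In LM8 cells Chp1 stood at 0.071 without scaling and Chp2 at 0.43 after quantile normalization and 0.32 without scaling (-0.33 to 0.17). The interaction was -0.22 and -0.18 for Tesc under the same settings (-0.019 to 0.82), -0.14 to 0.050 for Chp1 leaving out each array, and -0.44 for Chp2 without scaling (-0.64 to 1.69). Among the partners, Gpat4 stood at 0.12 after quantile normalization, 1.17 without scaling, 0.14 with normexp and 0.14 with flagged spots kept (-0.10 to 0.070 leaving out each array), Ppp3ca at 0.66 and Ppp3cc at 0.58 without scaling, and Cops4 at -0.25 without slide 1 (-0.12 to 0.76 leaving out each array, negative without replicate 1 of Dunn_25). Nfatc4 stood at -0.46 with normexp and Slc4a5 at 0.043 without scaling. The causes were not tested.

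Counts of called genes of the lists moved as follows. In late against early LM8 cells (5) there were 2 without scaling, 1 with normexp, 2 in the fit over all arrays, 2 by the methods' t-test, 1 without slide 1 and 2 to 5 leaving out each array (2 without replicate 2 or 3 of LM8_91). In Dunn cells (0) there were 1 after quantile normalization and 2 in the fit over all arrays. For the interaction (1) there were 2 after quantile normalization, without scaling and without slide 1, 0 with normexp, the floor or the mean of the probes, 3 with the filter on dim probes and 1 to 2 leaving out each array (2 without replicate 1 or 3 of Dunn_25 or replicate 1 of Dunn_86). Between the lines (16) there were 26 without scaling and 12 to 17 leaving out each array. For LM8_24 against Dunn_25 (7) there were 18 without scaling, 2 with normexp, 18 with the floor, 16 with the filter, 15 in the fit over all arrays and 2 to 16 leaving out each array (16 without replicate 2 of Dunn_25, 4 without replicate 3 of Dunn_25, 2 without any 1 replicate of LM8_24). For LM8_91 against Dunn_86 (6) there were 14 with the filter, 10 in the fit over all arrays, 13 without slide 1 and 2 to 20 leaving out each array (20 without replicate 1 of Dunn_86, 2 without any 1 replicate of LM8_91). Slc9a7 and Cib2 lost their calls between the lines without slide 1. Of 544 alternatives of single genes, 82 lost a call, 1 gained one, 16 turned the sign and 445 kept both direction and call. Of 342 alternatives of the members and the counts, 51 moved, 32 turned the sign and 259 did neither.

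Replicate numbers mark slides. Deviations from the group means correlated by 0.096 to 0.51 in 18 same-numbered pairs of arrays over 19634 probes, and by over 0.1 in 17. Since 1 pair fell short of that limit, the numbers were not taken as pairs for the comparisons reported, but the slide is a batch that holds every group. With the replicate block (slide), 2 listed genes were called with passage in LM8, 2 in the interaction, 2 for LM8_24 against Dunn_25 and 1 for LM8_91 against Dunn_86, and no member was called. The block ended the passage calls of Ets1, Ncs1 and Car5b in LM8 and the call of Ppp3r1 between the lines. The brightness of the Dunn_25 arrays and the 3 arrays per group limit what can be seen.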
